A study of Mus musculus with 4 samples.

Results

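The unfolded protein and ATF4 stress response is described here by 33 listed genes in the mouse mesenchymal line C3H10T1/2, which the labels class as stem cells, on 4 Affymetrix arrays. All 33 had a probe set annotated to that gene alone, out of 18193 such genes, and each was represented by its brightest probe set over the 4 arrays. BMP3 arrays were of cells given recombinant human BMP3, a secreted signalling protein related to TGF-beta, at 100 ng/ml for 6 hours (2 arrays). Control arrays were of untreated cells of the same line (2 arrays). Both groups were grown under the same standard culture conditions, and all results come from a single cell line. Replicates are biological per the labels, which give neither culture nor day, so p-values measure the spread between these arrays, which may be technical.

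Proteins that fail to fold in the endoplasmic reticulum activate the sensors PERK, IRE1 and ATF6. ATF6 and the factor XBP1, whose messenger RNA is spliced by IRE1, raise the chaperones and the degradation machinery of that compartment. PERK, and related kinases that sense amino acid shortage and other stresses, phosphorylate an initiation factor, which lowers general protein synthesis but raises translation of ATF4. ATF4 then induces regulators such as CHOP and enzymes of amino acid synthesis. Mesenchymal cells secrete much collagen and other matrix and depend on this folding capacity. The arrays measure transcripts, and translation of ATF4, phosphorylation of the kinases and splicing of Xbp1 were not analysed here.

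The listed genes were expressed well above the arrays' median, with mean log2 intensities between 7.86 and 15.01, and all 33 averaged a log2 value of 6 or more, as 9185 of the 18193 genes did. The median array value lay between 3.31 and 3.40 and the number of arrays limits the precision of every value here. Of 10 mesenchymal markers 9 exceeded a log2 value of 6 on all 4 arrays, the exception being Nt5e at 2.54 on average. Among markers of other cell types this was so of 0 of 5 endothelial, 1 of 6 blood cell (Cd14) and 1 of 5 epithelial genes (Epcam). The endothelial marker Tek, an angiopoietin receptor gene, nevertheless read 5.78 and 6.25 on BMP3 arrays and 8.74 and 8.52 on control arrays, a difference of -2.62 and the largest of the 26 markers, while none of the other 4 endothelial markers exceeded 2.37 on any array. The blood cell list had a median level of 3.47 and 3.88 on BMP3 arrays and 3.44 and 3.46 on control arrays, and Ptprc, which defines blood cells, stayed between 2.46 and 2.55. In such bulk RNA, fewer cells expressing a gene and less RNA of it per cell cannot be told apart. The array control for 18S ribosomal RNA read 8.99 and 9.90 on BMP3 arrays and 11.41 and 10.50 on control arrays. The control families Dap, Lys, Phe and Thr, which on these arrays report on RNA labelling, were also lower on both BMP3 arrays. Dap read 9.13 and 8.85 on BMP3 arrays and 10.39 and 9.86 on control arrays, and Phe 6.52 and 6.57 on BMP3 arrays and 8.03 and 7.07 on control arrays. Lys read 6.11 and 6.37 on BMP3 arrays and 7.45 and 6.48 on control arrays, and Thr 5.43 and 5.43 on BMP3 arrays and 6.22 and 5.59 on control arrays. The part of Tek and of these controls in the results below was not tested.

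No listed gene differed between BMP3 and control arrays at an adjusted p of 0.05 (limma, Benjamini-Hochberg over 45037 probe sets), and neither did any other probe set (0% called, with 3779 at an unadjusted p under 0.05). At an unadjusted p under 0.05, 4 listed genes were counted, Ddit4, Atf5, Phgdh and Psat1, all higher in BMP3 arrays. That is 12.1% of the 33, above the 9.80% of all genes and below the 18.2% of genes at a log2 value of 6 or more, the level at which all 33 lie. When a fold of at least 1.5 was also required, 2 were higher and 0 lower, where 1.18% of all genes were higher and 1.65% lower. Of the 9185 genes at a log2 value of 6 or more, 184 were higher and 260 lower by the same rule. Differences below are BMP3 minus control on the log2 scale ± the standard error of the limma fit, and group means are given ± SD over 2 arrays. Of the 33 genes 26 had positive and 7 negative differences, with a median of 0.21, beside 53.3% positive and a median of 0.02 over the genes at a log2 value of 6 or more. The positive count changed with 1 array dropped. Leaving out BMP3 replicate 2 gave 14 of 33, leaving out control replicate 1 gave 17, and leaving out BMP3 replicate 1 gave 31. As 24 of 33 genes were higher on replicate 2 in both groups, dropping 1 array also unbalances the replicate numbers. These counts therefore cannot decide whether the result rests on 1 array. The median deviation of the 33 genes from their own means was -0.13 on BMP3 replicate 1 and -0.22 on control replicate 1. On the replicate 2 arrays it was 0.31 (BMP3) and 0.08 (control).

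**Figure D1:**
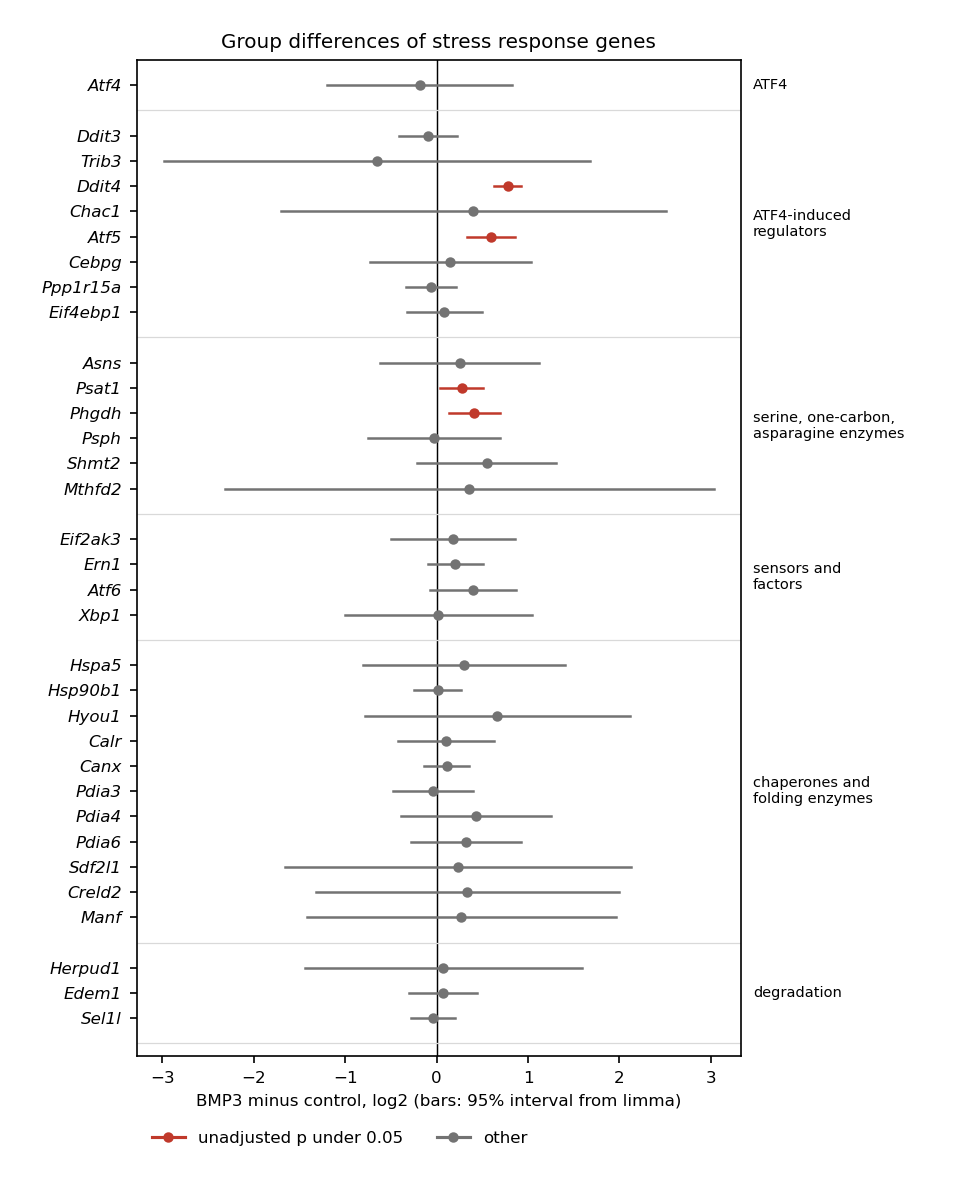
The log2 difference BMP3 minus control of each of the 33 genes (points) with its 95% interval from limma (bars), by role. The intervals of Ddit4, Atf5, Phgdh and Psat1 lie above 0, and those of Trib3 (-2.98 to 1.68) and Mthfd2 (-2.32 to 3.03) are the widest of the 33.

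Ddit4, which encodes an inhibitor of the growth kinase complex mTORC1, had the smallest p of the listed genes. Its log2 values were 11.05 and 11.10 on BMP3 arrays and 10.26 and 10.33 on control arrays. The groups did not overlap, and the arrays of a group were 0.05 (BMP3) and 0.07 (control) apart. The difference was 0.78 ± 0.05, a 1.71-fold higher level in BMP3 arrays (95% interval 0.63 to 0.93, limma unadjusted p = 0.000389, adjusted p = 0.213). Atf5, a transcription factor gene related to Atf4, had 11.95 and 11.85 on BMP3 arrays and 11.39 and 11.22 on control arrays. Both BMP3 arrays were higher, with a difference of 0.59 ± 0.09 (1.51-fold, limma adjusted p = 0.313). With any 1 array left out, the difference stayed between 0.74 and 0.81 for Ddit4 and between 0.51 and 0.68 for Atf5. Each is represented by a single probe set.

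Atf4 itself gave no such separation. Its brightest probe set read 12.30 and 13.04 on BMP3 arrays and 12.68 and 13.03 on control arrays. The arrays of replicate 2 were level with each other, and BMP3 replicate 1 was the lowest. The difference was -0.18 ± 0.33, and a second probe set of nearly the same brightness gave 0.23, so the direction differs between probe sets. Ddit3, which encodes the stress factor CHOP, had 11.63 and 11.53 on BMP3 arrays and 11.79 and 11.56 on control arrays, and its groups overlapped (difference -0.09 ± 0.10, and -0.71 at its other probe set). Trib3, a pseudokinase gene that is a standard marker of ATF4 activity, read 6.67 and 8.41 on BMP3 arrays and 7.80 and 8.57 on control arrays. Its groups overlapped, the lowest value being that of BMP3 replicate 1, and the difference was -0.65 ± 0.76. It was the only listed gene with a fold of at least 1.5 downwards, and the difference was 0.22 without BMP3 replicate 1. Chac1, which encodes a glutathione-degrading enzyme and is induced by ATF4, read 8.99 and 10.50 on BMP3 arrays and 8.93 and 9.75 on control arrays. Here too the replicate 1 arrays of both groups were low and those of replicate 2 high (difference 0.40 ± 0.68, ranging from -0.35 to 1.16 with 1 array left out). The other induced regulators were Cebpg, which encodes a dimer partner of ATF4 (0.15 ± 0.29), Ppp1r15a, whose product restores protein synthesis by dephosphorylating the initiation factor (-0.06 ± 0.09), and Eif4ebp1, a repressor of translation (0.08 ± 0.13). All 3 had overlapping groups at their brightest probe sets. A second Eif4ebp1 probe set of similar brightness read 12.68 and 13.03 on BMP3 arrays and 12.55 and 12.54 on control arrays, without overlap (difference 0.31). A second Cebpg probe set gave 0.36, with overlapping groups.

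**Figure D2:**
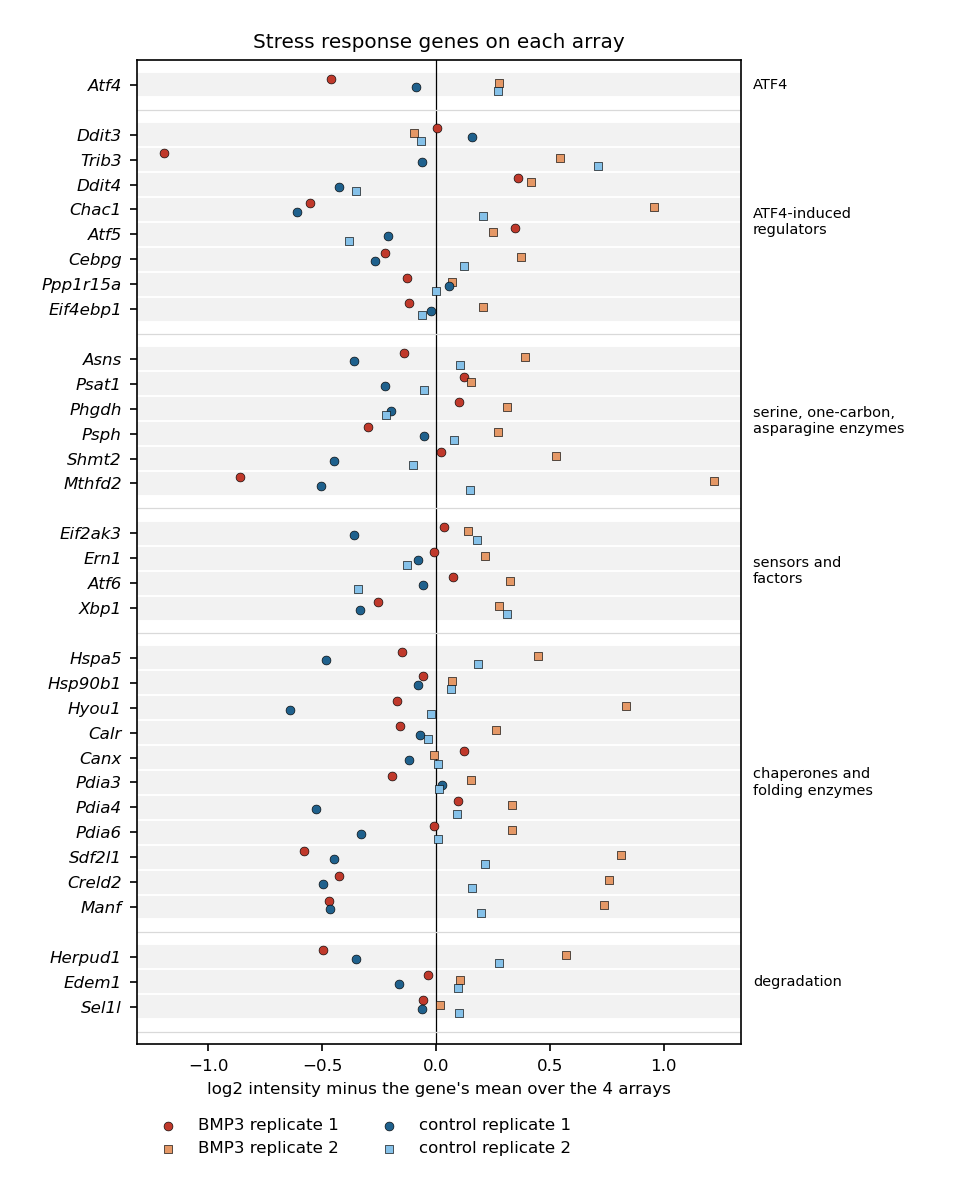
Deviation of each array's log2 intensity from the mean of the 4 arrays, for the 33 genes by role (circles, replicate 1; squares, replicate 2; warm colours, BMP3; blue, control). Ddit4 and Atf5 divide by treatment, whereas the squares lie right of the circles of their own group for Trib3, Chac1, Mthfd2, Sdf2l1, Creld2, Manf and Herpud1.

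The enzymes of serine, one-carbon and asparagine synthesis were positive for 5 of 6 members, with a median difference of 0.31. Phgdh, the first enzyme of serine synthesis from glycolytic intermediates, read 12.42 and 12.63 on BMP3 arrays and 12.13 and 12.10 on control arrays. Both BMP3 arrays were higher, by 0.41 ± 0.09 (limma adjusted p = 0.424), and its 4 probe sets gave 0.38 to 0.73. Psat1, the second enzyme of that pathway, read 13.19 and 13.22 on BMP3 arrays and 12.85 and 13.02 on control arrays, again with no overlap. The Psat1 difference was 0.27 ± 0.08 (limma adjusted p = 0.524), and 0.51 at its other probe set. Shmt2, which makes one-carbon units from serine in mitochondria, did not overlap between groups either (difference 0.55 ± 0.25, 3 probe sets at a log2 value of 6 or more between 0.37 and 0.65). Psph, the last enzyme of serine synthesis, did not follow the first pair, with 9.79 and 10.36 on BMP3 arrays and 10.04 and 10.17 on control arrays (difference -0.03 ± 0.23). Asns, asparagine synthetase, read 12.13 and 12.66 on BMP3 arrays and 11.91 and 12.38 on control arrays. For Asns, replicate 2 exceeded replicate 1 by 0.53 in BMP3 and by 0.46 in control arrays, and the groups overlapped (difference 0.25 ± 0.28). The other Asns probe set read 11.43 and 11.73 on BMP3 arrays and 10.97 and 11.29 on control arrays. There the groups did not overlap (difference 0.45), so the overlap depends on the probe set. Mthfd2, a mitochondrial folate enzyme gene induced by ATF4, read 8.18 and 10.26 on BMP3 arrays and 8.54 and 9.20 on control arrays. Its BMP3 arrays were 2.08 apart, the widest gap of any listed gene, against a group difference of 0.36 ± 0.87.

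The sensors and factors of the unfolded protein response all had positive differences, none past a limma unadjusted p of 0.05. Atf6, the membrane-bound factor that is cut during stress, read 7.95 and 8.20 on BMP3 arrays and 7.82 and 7.54 on control arrays (difference 0.40 ± 0.15, adjusted p = 0.68). Its groups did not overlap. A dimmer Atf6 probe set gave 0.29, again without overlap, and the dimmest gave 0.0023. Ern1, which encodes IRE1, read 9.34 and 9.56 on BMP3 arrays and 9.27 and 9.22 on control arrays, also without overlap (0.21 ± 0.10). Eif2ak3, which encodes PERK, read 9.77 and 9.88 on BMP3 arrays and 9.38 and 9.92 on control arrays, so that only control replicate 1 was low (0.18 ± 0.22, and -0.09 without that array). Xbp1 read 13.62 and 14.15 on BMP3 arrays and 13.54 and 14.19 on control arrays. For Xbp1 the replicate 2 arrays were high in both groups and the groups had nearly the same mean (0.02 ± 0.33).

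Chaperones and folding enzymes of the endoplasmic reticulum were positive for 10 of 11 members with a median of 0.27, and none had a limma unadjusted p under 0.05 (smallest 0.191). Hspa5, which encodes the main chaperone BiP, read 14.31 and 14.91 on BMP3 arrays and 13.97 and 14.64 on control arrays. The groups overlapped, with each replicate 2 array above both replicate 1 arrays (difference 0.30 ± 0.36). Hsp90b1, its partner GRP94, hardly varied at its brightest probe set, at 14.96 and 15.08 on BMP3 arrays and 14.94 and 15.08 on control arrays. Its difference there was 0.01 ± 0.08. A dimmer Hsp90b1 probe set varied more, at 13.79 and 14.17 on BMP3 arrays and 13.23 and 14.26 on control arrays (difference 0.23). Hyou1, an exchange factor for BiP, read 9.09 and 10.09 on BMP3 arrays and 8.62 and 9.24 on control arrays, a difference of 0.66 ± 0.47 (1.58-fold, limma adjusted p = 0.876). Its groups overlapped because control replicate 2 exceeded BMP3 replicate 1. Of the disulphide isomerases, Pdia4 (0.43 ± 0.27) was the only folding gene with no overlap, Pdia6 had 0.32 ± 0.19 and Pdia3 -0.04 ± 0.14. The lectin chaperones Calr and Canx had 0.10 ± 0.17 and 0.11 ± 0.08, with a second Canx probe set at -0.22. The small luminal proteins Sdf2l1, Creld2 and Manf, known as stress-induced, had the widest gaps between the BMP3 arrays among the folding genes. Sdf2l1 read 8.92 and 10.31 on BMP3 arrays and 9.05 and 9.71 on control arrays. Creld2 read 10.31 and 11.49 on BMP3 arrays and 10.24 and 10.89 on control arrays. Manf read 13.39 and 14.60 on BMP3 arrays and 13.39 and 14.06 on control arrays. In each of these the replicate 1 arrays of the groups were close and BMP3 replicate 2 was the highest.

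Genes of degradation from the endoplasmic reticulum had differences near 0. Herpud1, a membrane component of that machinery and a target of both branches, read 9.15 and 10.21 on BMP3 arrays and 9.30 and 9.92 on control arrays, with overlapping groups (0.07 ± 0.49, and -0.37 at a dimmer probe set). Edem1, a lectin-like factor that extracts misfolded glycoproteins, had 0.07 ± 0.12 and Sel1l, a subunit of the ubiquitin ligase complex, -0.04 ± 0.08.

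ATF4 targets and endoplasmic reticulum chaperones had nearly equal median differences. The 14 ATF4 targets (8 regulators and 6 enzymes) had a median difference of 0.26 and the 11 chaperones one of 0.27, and the first minus the second was -0.0062. With the mean of all probe sets of a gene that value was 0.16, so its sign depends on the probe sets used. The positive members were 10 of 14 and 10 of 11. Without BMP3 replicate 2 the medians were -0.06 and -0.05, with 5 of 14 and 5 of 11 positive, and without control replicate 1 they were 0.02 and 0.01, with 9 of 14 and 6 of 11 positive. Leaving out control replicate 2 gave medians of 0.38 and 0.56, and leaving out BMP3 replicate 1 gave 0.48 and 0.55. Groups did not overlap for 5 of 14 ATF4 targets (Ddit4, Atf5, Psat1, Phgdh and Shmt2) and for 1 of 11 chaperones (Pdia4), all higher in BMP3 arrays, and the difference between these counts was not tested. Over the 33 genes 8 were separated upwards and 0 downwards, that is 24.2% and 0%. Of all genes 16.7% were separated upwards and 20.6% downwards, and of genes at a log2 value of 6 or more 26.1% and 21.7%, so the upward share was near the background.

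The wider spread lay between the arrays of each group. BMP3 replicate 2 exceeded BMP3 replicate 1 for 30 of 33 genes, against 43.2% of genes at a log2 value of 6 or more. Control replicate 2 exceeded control replicate 1 for 25 of 33, against 40.8% of those genes. Both held for 24 of 33 genes (72.7%), against 25.7%. The gap between the BMP3 arrays was larger than the difference of the group means for 25 of 33 genes (75.8%), beside 55.8% of genes at that level, and for 10 of 11 chaperones. The gap between the control arrays was larger for 21 of 33 (63.6%), beside 44.1%. The widest gaps between BMP3 arrays were those of Mthfd2 (2.08, and 0.66 between control arrays) and Trib3 (1.74 and 0.77). Chac1 (1.51 and 0.82) and Sdf2l1 (1.39 and 0.66) came next. By contrast the gaps of Ddit4 were 0.05 and 0.07 and those of Psat1 0.03 and 0.17. Of the ATF4-induced regulators, Ddit3 (-0.10 and -0.22) and Atf5 (-0.10 and -0.17) were lower on replicate 2 in both groups. The hybridization spike-ins, which report on the array step alone, read 11.48 and 11.62 on BMP3 arrays and 11.57 and 11.61 on control arrays. What sets the replicate 2 arrays apart was not tested.

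**Figure D3:**
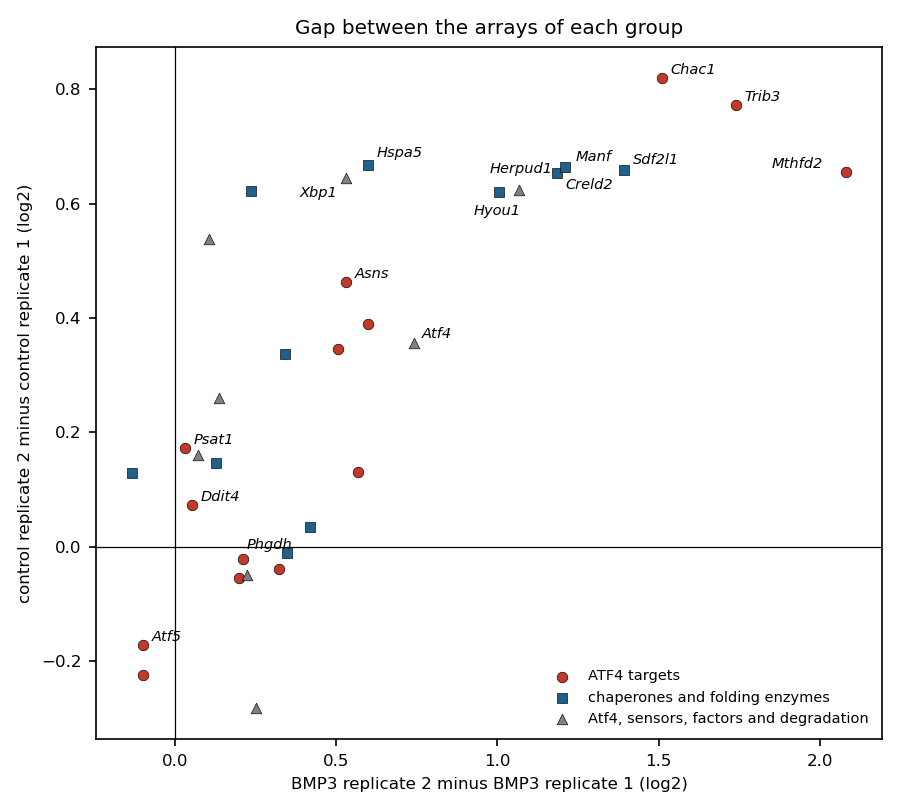
For each of the 33 genes, the log2 gap between the 2 BMP3 arrays (horizontal) and between the 2 control arrays (vertical). Points in the upper right, 24 of 33, were higher on replicate 2 in both groups, and ATF4 targets (circles) and chaperones (squares) share that region.

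The level of a group on an array, the median deviation of its members from their own means, put this together. ATF4 targets stood at -0.12 and 0.34 on BMP3 arrays and at -0.22 and -0.02 on control arrays. Chaperones stood at -0.16 and 0.34 on BMP3 arrays and at -0.45 and 0.07 on control arrays. For both groups BMP3 replicate 2 was the highest array and control replicate 1 the lowest, and control replicate 2 lay above BMP3 replicate 1. The pooled SD of this level between replicates was 0.25 for ATF4 targets and 0.36 for chaperones, about the size of their median differences. The longer list of 23 other regulators, described further on, did not have this order and stood at 0.04 and -0.01 on BMP3 arrays and at -0.04 and -0.06 on control arrays. Over the 9185 genes at a log2 value of 6 or more the level stayed between -0.03 and 0.03.

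**Figure D4:**
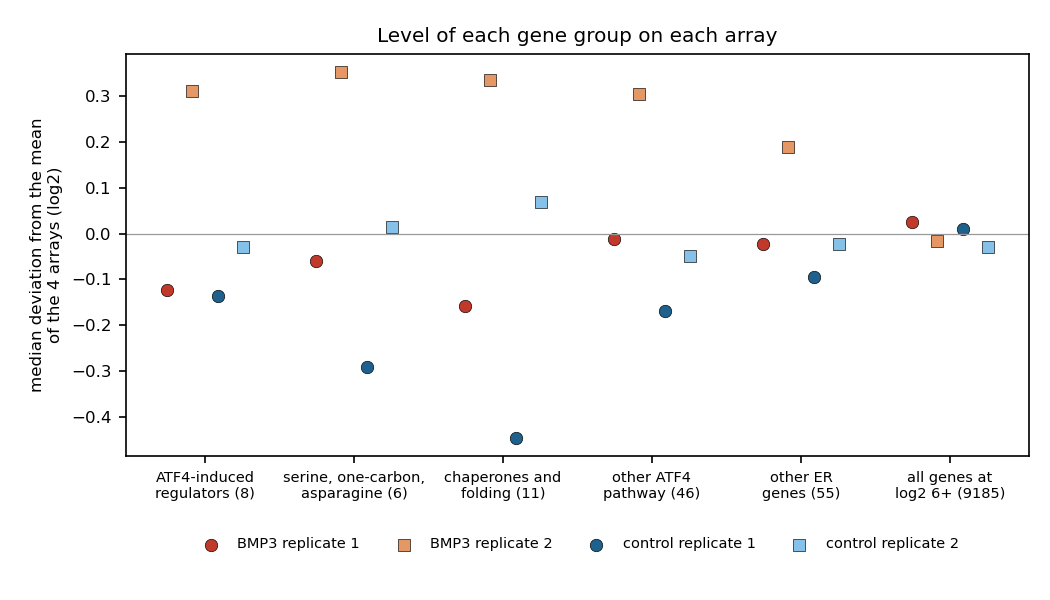
Median log2 deviation of each gene group from the mean of the 4 arrays, by array (number of genes in brackets). BMP3 replicate 2 is the highest array for the ATF4-induced regulators, the enzymes, the chaperones and both longer lists drawn, and the chaperones on control replicate 1 (-0.45) are the lowest point drawn.

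Other genes of the same pathways were taken from longer lists, and none passed an adjusted p of 0.05 in limma. Of 48 other ATF4 pathway genes 46 were measured, of which 33 were positive and 13 negative (median 0.23). In that list 16 were separated upwards (34.8%) and 6 downwards (13%). Beside these counts, 53.3% of genes at a log2 value of 6 or more were positive, 26.1% separated upwards and 21.7% downwards, and of all genes 42.4%, 16.7% and 20.6%. The 4 with the smallest p among those with a fold of at least 1.5 were all higher in BMP3 arrays. Aldh1l2, a mitochondrial folate enzyme gene, read 10.98 and 10.84 on BMP3 arrays and 10.03 and 10.28 on control arrays (difference 0.75 ± 0.12, limma adjusted p = 0.334). Mthfd1l, of the same mitochondrial folate pathway, read 8.71 and 9.04 on BMP3 arrays and 7.70 and 8.27 on control arrays (0.89 ± 0.26). Slc6a9, a glycine transporter gene, had 0.67 ± 0.21. Tnfrsf10b, a death receptor gene, had 0.86 ± 0.26 but its 4 log2 values were all under 6. On single arrays left out, 27 of 46 were positive without BMP3 replicate 2 and 31 or 32 without any other.

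Of 58 other genes of folding, translocation and degradation in the endoplasmic reticulum 55 were measured, and 41 were positive and 14 negative (median 0.12). The separated members were 19 upwards (34.5%) and 3 downwards (5.5%), against 26.1% and 21.7% of genes at a log2 value of 6 or more, of which 53.3% were positive. The only one with a limma unadjusted p under 0.05 and a fold of at least 1.5 was Spcs3, a signal peptidase subunit gene, at 12.09 and 12.31 on BMP3 arrays and 11.21 and 11.72 on control arrays (0.73 ± 0.22, adjusted p = 0.561). Of 25 other regulators of the response 23 were measured, with 15 positive and 8 negative (median 0.11). Eif2b2, a subunit of the exchange factor through which the response lowers protein synthesis, read 11.80 and 11.92 on BMP3 arrays and 11.20 and 11.31 on control arrays (0.61 ± 0.07, limma adjusted p = 0.287). Eif2ak2, which encodes the interferon-induced kinase PKR, read 9.44 and 9.27 on BMP3 arrays and 10.25 and 10.09 on control arrays. Both BMP3 arrays were lower, by -0.81 ± 0.10 (limma adjusted p = 0.287).

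Promoters of the listed genes were searched for elements known from these pathways. Windows are printed for the 6 genes with the largest absolute difference, BMP3 minus control, among those with a match before the start. They were taken from RefSeq (GRCm38.p6, 250 bases before to 50 after each annotated start), where 29 of the 33 genes matched by Entrez ID. Of these 10 held at least 1 of the 4 motifs searched and 19 held none. Both strands were searched for TGATGNAA (C/EBP-ATF element, bound by ATF4 dimers), the ER stress element (CCAAT, any 9 bases, CCACG, bound by ATF6 with NF-Y), ER stress element II (ATTGG, any 1 base, CCACG) and TGACGTGG (the unfolded protein response element). The ER stress element was found in 6 of 9 matched chaperone and folding genes and in 0 of 13 matched ATF4 targets, and in 0.119% of all 32851 promoters. The C/EBP-ATF element was found in 3 of 13 ATF4 targets (Asns, Chac1 and Trib3), in Herpud1 and in 0 of 9 chaperones, and in 3.97% of all promoters. ER stress element II was found only in Herpud1 among the listed genes and in 0.0365% of all promoters, and TGACGTGG in none of them and in 0.676% of all. A match is a description of these letters, and no match says only that they are not in this window.

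For the ATF4 targets, the 250 bases before the start of Asns (chr6:7693210-7693459, minus strand) and of Chac1 (chr2:119350992-119351241, plus strand) are given 5′ to 3′ on the strand of the gene, with the C/EBP-ATF element in capitals. The Asns match begins at position -23 from the start, and the Chac1 match, on the opposite strand, at -193.
Asns: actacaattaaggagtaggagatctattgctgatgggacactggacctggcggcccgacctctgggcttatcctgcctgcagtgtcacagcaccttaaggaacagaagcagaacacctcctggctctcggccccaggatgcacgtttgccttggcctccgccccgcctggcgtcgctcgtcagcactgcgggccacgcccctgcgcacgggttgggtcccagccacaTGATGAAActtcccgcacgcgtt
Chac1: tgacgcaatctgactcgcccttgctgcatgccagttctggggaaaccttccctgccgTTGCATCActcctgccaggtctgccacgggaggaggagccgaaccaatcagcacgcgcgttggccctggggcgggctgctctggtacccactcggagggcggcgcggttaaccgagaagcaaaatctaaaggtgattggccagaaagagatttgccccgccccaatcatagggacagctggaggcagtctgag

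For the chaperones, the same window is given for Hspa5 (chr2:34771840-34772089, plus strand), Creld2 (chr15:88819396-88819645, plus strand), Pdia6 (chr12:17266339-17266588, plus strand) and Canx (chr11:50325674-50325923, minus strand), with the ER stress element in capitals. It begins at -65 in Hspa5, -126 in Creld2 (opposite strand), -98 in Pdia6 and -145 in Canx.
Hspa5: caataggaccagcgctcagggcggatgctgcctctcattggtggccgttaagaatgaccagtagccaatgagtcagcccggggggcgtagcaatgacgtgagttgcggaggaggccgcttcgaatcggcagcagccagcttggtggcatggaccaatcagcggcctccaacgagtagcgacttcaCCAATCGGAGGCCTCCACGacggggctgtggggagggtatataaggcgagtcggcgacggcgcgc
Creld2: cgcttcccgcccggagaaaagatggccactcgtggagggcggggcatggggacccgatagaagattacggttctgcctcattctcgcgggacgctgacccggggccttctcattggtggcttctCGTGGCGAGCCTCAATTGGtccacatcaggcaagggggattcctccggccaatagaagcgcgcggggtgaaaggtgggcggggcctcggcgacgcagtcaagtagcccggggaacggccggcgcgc
Pdia6: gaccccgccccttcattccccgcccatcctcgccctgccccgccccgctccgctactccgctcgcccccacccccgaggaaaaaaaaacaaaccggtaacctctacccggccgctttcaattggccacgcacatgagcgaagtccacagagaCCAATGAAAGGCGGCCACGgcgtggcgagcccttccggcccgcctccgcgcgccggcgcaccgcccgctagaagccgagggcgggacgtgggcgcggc
Canx: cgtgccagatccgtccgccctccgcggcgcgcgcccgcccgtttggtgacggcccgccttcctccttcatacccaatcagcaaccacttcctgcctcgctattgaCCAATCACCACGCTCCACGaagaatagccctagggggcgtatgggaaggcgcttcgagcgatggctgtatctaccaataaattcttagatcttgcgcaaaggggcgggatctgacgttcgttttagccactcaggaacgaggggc

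The remaining matches were in Calr and Hsp90b1, the second with a pair of ER stress elements, in Herpud1 with a C/EBP-ATF element and ER stress element II, and in Trib3 with a C/EBP-ATF element. They lie at chr8:84847075-84847093 (Calr, -162, opposite strand), chr10:86705638-86705656 (Hsp90b1, -212), chr10:86705533-86705551 (Hsp90b1, -107, opposite strand), chr8:94386317-94386324 (Herpud1, -112, opposite strand), chr8:94386377-94386387 (Herpud1, -52) and chr2:152344039-152344046 (Trib3, 15 bases after the start, opposite strand), written 5′ to 3′ on the strand of the gene.
Calr: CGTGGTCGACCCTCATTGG
Hsp90b1, first: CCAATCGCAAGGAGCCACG
Hsp90b1, second: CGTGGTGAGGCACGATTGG
Herpud1, C/EBP-ATF element: TTGCATCA
Herpud1, ER stress element II: ATTGGGCCACG
Trib3: TTACATCA

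Genes with the same element did not share one size of difference or gap. Among the 6 with the ER stress element, Creld2 had BMP3 arrays 1.18 apart and control arrays 0.65 apart, and Hspa5 0.60 and 0.67. Hsp90b1, with its pair of elements, had 0.13 and 0.15 at its brightest probe set. Its dimmer probe set had wider gaps, reading 13.79 and 14.17 on BMP3 arrays and 13.23 and 14.26 on control arrays. Sdf2l1, whose arrays were 1.39 and 0.66 apart, had none of the 4 motifs in its window.

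**Figure D5:**
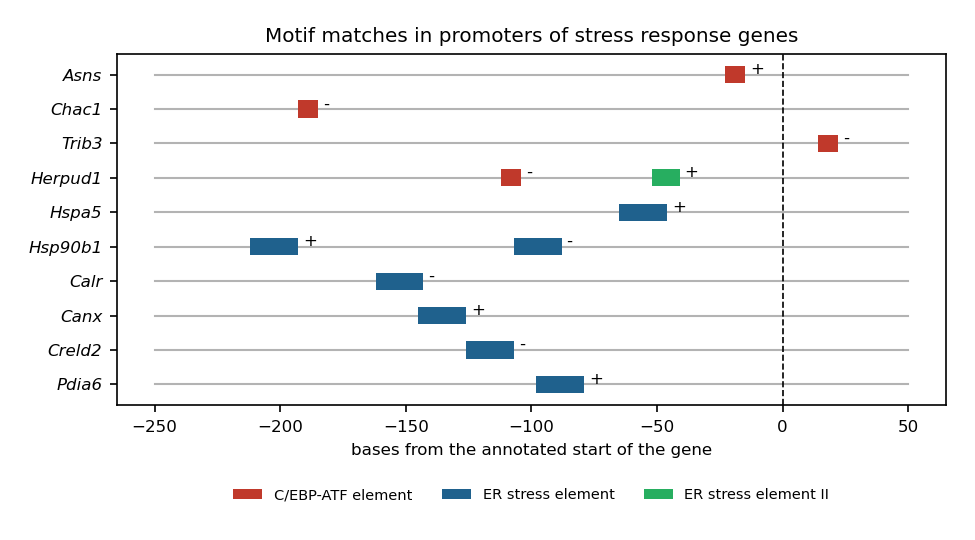
Position of motif matches in the promoters of the 10 listed genes that hold any (grey line, the searched window; dashed line, annotated start; plus or minus, strand relative to the gene). ER stress elements lie between -212 and the start in 6 chaperone genes, and the Trib3 match begins 15 bases after the start.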

How the data were processed

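Total RNA was labelled with biotin by a 3' in vitro transcription kit and hybridised to Affymetrix arrays, per the labels' protocols. Each deposited value belongs to a probe set and an array and was read as a log2 intensity from its range and shape, since the sources used here do not state the scale. The submitters' processing notes name Partek. How background, normalization and probe summary were handled is not given in the sources used here, and a normalization that equalises arrays would hide a shift shared by most transcripts.

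Of 45101 probe sets 64 array controls were left out, and 34945 of the 45037 others carried 1 gene symbol, 932 several and 9160 none in the platform annotation. No filter on dim probe sets was applied. Groups were set by the sample titles. The test was limma's moderated test (version 3.58.1, under R 4.3.3, two-sided, no covariate, 1.18 prior degrees of freedom) on 2 arrays per group. Tested on simulated data of 45037 probe sets, the fit recovered 51% of log2 changes of 1 and 59% of log2 changes of 2 at an adjusted p of 0.05, with 3 unchanged probe sets called. No such share was worked out for the listed genes alone, whose SD within a group reached 1.47 (Mthfd2, BMP3 arrays). Recovery for genes with that spread was not tested, so these shares do not carry over to the listed genes.

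The members, their roles, the longer lists and the alternatives were chosen with earlier results of these data known, so no list received a test of its own. Array values are given for members with an unadjusted p under 0.05 or a fold of at least 1.5, for 13 further or overlapping members fixed by name, and from each longer list for up to 4 genes that met both. Values of some other members are given to show the spread between arrays. The alternatives are listed in the closing section. Promoter sequences come from RefSeq, GRCm38.p6.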

Additional observations from a re-analysis of the deposited data

How the results depend on the processing

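No probe set passed an adjusted p of 0.05 under any alternative that could be run, and 0 of the 396 values of the 33 genes over 12 alternatives did, while 37 of them had the opposite sign to the reported value. The number of listed genes at an unadjusted p under 0.05, 4 as reported, was 2 in the ordinary linear model and 2 to 7 with an array left out. With the replicate number as a block it was 10, comprising 6 of 14 ATF4 targets and 4 of 11 chaperones (Hspa5, Hyou1, Pdia4 and Pdia6), against 4 and 0 as reported, and the block moved the count over all probe sets to 6701 from 3779 while 0 passed the adjusted threshold. Deviations of BMP3 replicate 1 and control replicate 1 correlated at 0.60 over 17152 probe sets, which are not independent, and with 2 pairs and no statement in the labels the numbers were not taken as pairs. The probe sets at an unadjusted p under 0.05 also moved by over 1.5 times with dim probe sets left out (2216), in the ordinary linear model (2299) and without BMP3 replicate 1 (5681). With an array left out, genes with positive differences ranged from 14 to 31 of 33, from 5 to 13 of 14 ATF4 targets and from 5 to 11 of 11 chaperones, counts added after seeing the data. The median of ATF4 targets ranged from -0.06 to 0.48, that of chaperones from -0.05 to 0.56, and the first minus the second from -0.18 to 0.015. That last value was 0.16 with the mean of all probe sets of a gene. The cause of these changes was not tested.

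Differences of 22 genes turned direction with an array left out, over ranges of Atf4 -0.55 to 0.19, Ddit3 -0.20 to 0.019, Trib3 -1.52 to 0.22, Chac1 -0.35 to 1.16, Cebpg -0.15 to 0.45, Ppp1r15a -0.16 to 0.043, Eif4ebp1 -0.078 to 0.25, Asns -0.014 to 0.52, Psph -0.31 to 0.26, Mthfd2 -0.68 to 1.40, Eif2ak3 -0.091 to 0.45, Xbp1 -0.30 to 0.34, Hspa5 -0.034 to 0.63, Hsp90b1 -0.063 to 0.084, Calr -0.11 to 0.32, Pdia3 -0.21 to 0.14, Sdf2l1 -0.46 to 0.93, Creld2 -0.26 to 0.93, Manf -0.34 to 0.87, Herpud1 -0.46 to 0.61, Edem1 -0.060 to 0.20, Sel1l -0.12 to 0.041. Under quantile normalization Ppp1r15a was 0.0093 and Hsp90b1 -0.0094, and with arrays centred on their medians Psph was 0.012. With the mean of all probe sets Atf4 was 0.028, Xbp1 -0.056, Canx -0.0077 and Herpud1 -0.15. The offset of 16 turned no difference. The intensity trend, the filter, the replicate block and the ordinary linear model could turn none, because they leave each difference as it is. Signs could therefore change only under the other alternatives. The 10 genes that kept their sign throughout were Ddit4, Atf5, Psat1, Phgdh, Shmt2, Ern1, Atf6, Hyou1, Pdia4 and Pdia6.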

Other observations

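Aminoacyl-tRNA synthetases, which charge tRNAs and are induced by ATF4, were looked at as a subgroup of the other ATF4 pathway genes after their values were seen. Of 12 measured, 11 were positive and 1 negative, with a median log2 difference of 0.37 (BMP3 minus control), 6 separated upwards (50%) and 1 downwards (8.3%). Of genes at a log2 value of 6 or more, 53.3% were positive, 26.1% separated upwards and 21.7% downwards. The negative one was Eprs, at 11.53 and 11.59 on BMP3 arrays and 11.63 and 11.70 on control arrays. Aars, for alanine, read 10.84 and 11.45 on BMP3 arrays and 10.42 and 10.80 on control arrays, and Lars, for leucine, read 11.12 and 11.33 on BMP3 arrays and 10.71 and 10.88 on control arrays. The subgroup stood at -0.06 and 0.47 on BMP3 arrays and at -0.31 and -0.05 on control arrays (median deviation from the genes' own means), so it was highest on BMP3 replicate 2. The smallest limma adjusted p among the synthetases was 0.496.

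The 5 subunits of the initiation factor eIF2B, also grouped after their values were seen, had 4 positive differences and 1 negative, with 3 separated upwards and 0 downwards, against the same background. Eif2b4 read 10.15 and 10.14 on BMP3 arrays and 9.98 and 9.93 on control arrays, and Eif2b5 read 10.38 and 10.40 on BMP3 arrays and 10.26 and 10.15 on control arrays. Eif2b3 read 10.01 and 10.87 on BMP3 arrays and 10.11 and 10.25 on control arrays, with overlapping groups. The subgroup stood at 0.08 and 0.10 on BMP3 arrays and at -0.07 and -0.12 on control arrays. The smallest limma adjusted p among the subunits was 0.287.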
